A study of Mus musculus with 6 samples.

Results

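The genes described here are 10 outputs of the ERK branch of MAPK signaling, namely the feedback inhibitors Dusp4, Dusp5, Dusp6, Spry1, Spry2, Spry4, Spred1 and Spred2 and the transcription factors Etv4 and Etv5. They were taken by name, through the mouse Ensembl identifiers of the count tables, out of 55401 genes, and all 10 were among the 18539 genes that passed the filter on low counts. RNA-Seq was performed on poly(A) RNA of NIH3T3 cells, an immortalized line of mouse embryonic fibroblasts, in 6 libraries. EV is cells with empty vector given DMSO (2 libraries), TC is cells expressing the TAZ-CAMTA1 fusion given DMSO (1 library), and TC + ATA is cells expressing TAZ-CAMTA1 given 10 μM aurintricarboxylic acid (3 libraries). All cells had been seeded 16 h before and were kept in DMSO or ATA for 48 h. TAZ-CAMTA1 joins the coactivator TAZ to the transcription factor CAMTA1, and ATA is the small molecule that the study tested as a disruptor of TAZ binding to TEAD transcription factors. The promoter that drives TAZ-CAMTA1 and whether the TC cells are 1 clone are not given in the sources used here. No EV cells given ATA were analysed here, so a response to ATA that needs TAZ-CAMTA1 and one that does not cannot be told apart.

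Growth factor receptors activate RAS, RAF, MEK and ERK in turn, and active ERK induces genes whose products shut the same cascade down. The DUSP proteins are phosphatases that remove phosphate from MAP kinases, whereas Sprouty and Spred proteins act upstream, between the receptor and RAF. Etv4 and Etv5 belong to the PEA3 group of ETS transcription factors, which carry ERK and FGF signals into the nucleus, and transcripts of all these genes are widely used as readouts of ERK output in fibroblasts and tumors.

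The libraries held between 58471484 and 74413193 counts. The TC group has a single library, so only EV and TC + ATA libraries set the replicate spread (3 residual degrees of freedom), and a difference from TC cannot be checked against a repeat of TC. The labels do not say whether replicates were separate cultures, so p-values measure only the spread between these libraries. The EV pair differed more (chi-square of the counts per degree of freedom 61.3) than the TC + ATA pairs did (5.86 to 6.61). It also differed more than TC did from the TC + ATA libraries (22.8 to 24.7), and the EV spread enters the test between those groups. The 8 fibroblast markers summed to 14283 to 19213 CPM (counts relative to the TMM-normalized library size). Of these, Col1a1 and Vim rose in TC versus EV (log2 fold changes 0.53 and 0.64, adjusted p = 0.0103 and 0.00658 from edgeR), whereas Thy1 and Fn1 fell (−1.47 and −0.83, adjusted p = 1.03e-05 and 0.00259 from edgeR), Thy1 from 204 and 183 CPM in EV to 69.6 in TC and 79.8 to 86.0 in TC + ATA. The 5 epithelial, 4 endothelial and 3 neural markers summed to at most 3.93, 3.44 and 2.65 CPM in any library, with Epcam, Cdh1, Krt18, Gfap and Sox10 at 0 in at least 1 library. Of 4 haematopoietic markers, which summed to 6.23 and 6.62 CPM in EV, 10.5 in TC and 11.6 to 16.7 in TC + ATA, Adgre1 was at 0 in some libraries and Lyz2 rose (0.495 and 0.249 CPM in EV, 5.66 in TC and 8.40 to 9.59 in TC + ATA, adjusted p in TC versus EV 1.09e-05 from edgeR). Ptprc and Cd68, also on that list, were not called in TC versus EV (log2 fold changes −0.44 and −0.22, adjusted p = 0.8 and 0.729 from edgeR). Within TC + ATA, Ptprc ranged from 0.282 to 5.33 CPM. The 3 muscle markers summed to 199 to 411 CPM over all libraries. The part of these markers in the results was not tested. Wwtr1, the mouse gene of TAZ, had 110 and 104 CPM in EV, 139 in TC and 129 to 131 in TC + ATA. Camta1, the other fusion partner, had 18.9 and 15.4 CPM in EV, 19.2 in TC and 18.4 to 18.8 in TC + ATA. In TC versus EV, Wwtr1 was higher and Camta1 was not called (log2 fold changes 0.37 and 0.16, adjusted p = 0.00697 and 0.411 from edgeR). The counts do not separate the introduced fusion from the endogenous genes. In bulk RNA, fewer cells with a transcript and less transcript per cell cannot be told apart.

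The 10 genes differed between TC and EV in both directions. Dusp4, Dusp5 and Etv4 were higher in TC than in EV, Spry1 and Spry2 were lower, and Dusp6, Spry4, Spred1, Spred2 and Etv5 did not pass the threshold (edgeR's quasi-likelihood test, adjusted p of at most 0.05). Of all genes tested, 14.8% were higher and 13.2% lower, so the 3 and 2 of 10 called here stand beside a broad response. Only Dusp4 among the 10 also reached an absolute log2 fold change (log2FC) of 2, a limit that 3.64% of all genes passed in either direction. The median log2FC of the 10 genes was 0.16, against −0.03 for all genes tested. With libraries scaled by their totals alone, the median of all genes was −0.13 and the calls shifted from 2735 higher and 2456 lower to 2072 and 3159. After ATA, Etv4 alone was called between TC + ATA and TC, and it was lower. Values of every library are plotted for each gene.

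**Figure D1:**
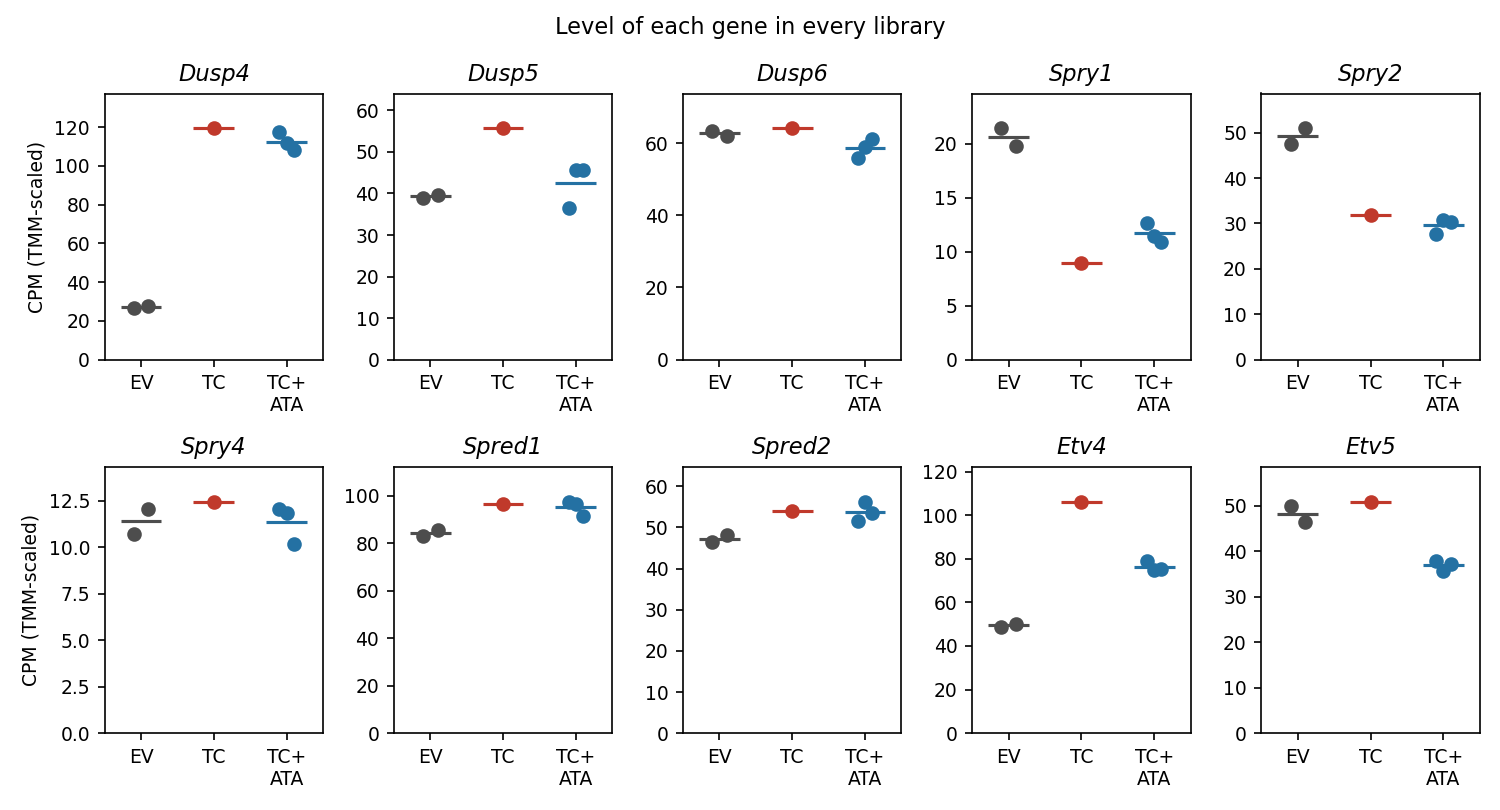
Level of the 10 genes in every library, in CPM on linear axes that start at 0, with points for libraries and a line for the mean of the 2 EV libraries, the 1 TC library and the 3 TC + ATA libraries. Dusp4 stood at 26.6 and 27.6 CPM in EV and between 108 and 119 in all TC-expressing libraries, and Etv4 in TC + ATA lay between its EV and TC levels.

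Upstream sequence was examined for the members with a RefSeq promoter window (GRCm38.p6), that is 8 windows of 7 genes, each the 250 bases before an annotated start site. Promoters of Dusp4, Spry4 and Etv4 were not used here. Exact matches on either strand were sought for the ETS site CCGGAA, the AP-1 site TGACTCA and the cAMP response element TGACGTCA. Shorter ETS matches were not sought. The TEAD element GGAATG and the CArG box of serum response factor were also sought. Capicua, a repressor of Etv4 and Etv5 that ERK inactivates, was represented by the core TGAATG of its sites. Its extended form TGAATGAA, which contains the core, was sought too. The stretches shown hold all but 1 of the matches found. Those of Dusp5 and Spry1 lie within annotated exons of the antisense genes AC137853.2 and Gm42922. Capitals mark CArG boxes in Dusp5, the TGAATG core (or its reverse complement CATTCA) in Dusp6 and Etv5, and the TEAD element in Spry1, each read 5′ to 3′ on the strand of the gene. The Dusp5 stretch is chr19:53529015-53529104 (plus strand, 130 to 41 bases before the start site), that of Dusp6 is chr10:99263061-99263160 (plus, 170 to 71 before), that of Spry1 is chr3:37639697-37639796 (plus, 250 to 151 before), and that of Etv5 is chr16:22438469-22438618 (minus, 250 to 101 before its second, inner start site).
Dusp5: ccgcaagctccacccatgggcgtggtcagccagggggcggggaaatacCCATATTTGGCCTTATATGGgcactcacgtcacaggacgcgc
Dusp6: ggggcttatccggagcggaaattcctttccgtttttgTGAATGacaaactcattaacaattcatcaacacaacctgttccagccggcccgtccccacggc
Spry1: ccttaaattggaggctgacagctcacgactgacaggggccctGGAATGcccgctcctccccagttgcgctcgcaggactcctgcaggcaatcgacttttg
Etv5: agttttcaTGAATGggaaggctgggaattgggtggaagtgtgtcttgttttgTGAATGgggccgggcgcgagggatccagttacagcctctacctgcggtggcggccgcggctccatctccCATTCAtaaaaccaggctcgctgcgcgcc

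Dusp5 holds a pair of adjacent CArG boxes, and the boxes are rare, since 1.47% of the 32851 windows of all genes hold at least 1 and 0.0183% hold at least 2. Its window also has 1 TGAATG core, 37 to 32 bases before the RefSeq start site and outside the stretch shown. That window runs to chr19:53529144, whereas the GENCODE gene starts at chr19:53529109, so this core lies across the GENCODE start. The inner Etv5 window holds 3 TGAATG cores, a number that 0.131% of all windows reach, while 10.9% hold at least 1. The TEAD element of Spry1 is a common match, present in 12.6% of windows. No window of these 7 genes had CCGGAA (12.0% of all windows), the AP-1 site (4.46%), the cAMP response element (1.55%) or TGAATGAA (1.08%). The windows of Spry2, Spred1 and Spred2 and the outer window of Etv5 had no match to any of the motifs sought. The Spred2 window and the outer Etv5 window reach into the GENCODE genes. The Spred1 window ends at chr2:117121070, before the GENCODE start at chr2:117121374. A match of letters is a description and does not show binding. The motifs were chosen after these windows had been seen, and the repeat numbers compared were those that Dusp5 and Etv5 hold.

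Dusp4, an inducible phosphatase found in the nucleus, responded most. It lies at chr8:34807297-34819894 (GRCm38, plus strand), and its level was 26.6 and 27.6 CPM in the EV libraries, 119 CPM in TC and 117, 112 and 108 CPM in TC + ATA. Every TC-expressing library was about 4 times the EV level, and the TC + ATA libraries all lay just below TC. The log2FC was 2.14 in TC versus EV (SE 0.08, adjusted p = 6.38e-07 from edgeR) and 2.05 in TC + ATA versus EV (SE 0.07, adjusted p = 1.34e-07). Relative to TC, TC + ATA had a value of −0.09, with a 95% interval from −0.26 to 0.09 (adjusted p = 0.788 from edgeR). Both calls against EV held under all 13 alternatives to the fit.

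Dusp5, a nuclear phosphatase that acts on ERK, had 39.0 and 39.5 CPM in EV, 55.7 CPM in TC and 36.6, 45.6 and 45.6 CPM in TC + ATA. Thus TC stood above both EV libraries, while the TC + ATA libraries straddled the EV level. TC exceeded EV by a log2FC of 0.50 (SE 0.13, adjusted p = 0.0178 from edgeR), a call that was lost when libraries were scaled by their totals alone (0.40, adjusted p = 0.0792 from edgeR). Set against TC, TC + ATA gave −0.39 (SE 0.12, 95% interval from −0.66 to −0.11, adjusted p = 0.304 from edgeR), and set against EV it gave 0.12 (adjusted p = 0.387). The lowest TC + ATA value came from replicate 1, the shallowest library. Without that replicate the difference between TC + ATA and TC was −0.29 (adjusted p = 0.499 from edgeR), and without EV replicate 1, which left EV with 1 library, it was −0.39 (adjusted p = 0.0486 from edgeR). Dusp5 (chr19:53529109-53542431, plus strand) overlaps an antisense gene, AC137853.2, over 547 of its 2473 exonic bases, and that gene had between 3 and 33 counts per library.

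Dusp6, the cytoplasmic ERK phosphatase that is the usual marker of ERK activity (chr10:99263231-99267489, plus strand), passed the threshold in no comparison. It had 63.4 and 61.9 CPM in EV, 64.1 CPM in TC and 56.0, 59.0 and 61.1 CPM in TC + ATA. Between TC and EV the log2FC was 0.03, with a 95% interval from −0.16 to 0.22 (adjusted p = 0.824 from edgeR), and it turned to −0.08 when libraries were scaled by their totals alone. For TC + ATA against TC it was −0.13, with an interval from −0.31 to 0.05 (adjusted p = 0.677 from edgeR). The Dusp4 log2FC in TC versus EV (2.14) lies far outside the Dusp6 interval of that comparison.

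Spry1 and Spry2 went the other way. Spry1 (chr3:37639947-37644598, plus strand) encodes a membrane-associated inhibitor of receptor signaling to RAS, and its level was 21.4 and 19.8 CPM in EV, 8.98 CPM in TC and 12.7, 11.5 and 10.9 CPM in TC + ATA. The TC value rests on 623 counts, with a 95% exact Poisson interval from 575 to 674 that covers counting error only. All TC-expressing libraries were below both EV libraries, and all TC + ATA libraries were above TC. Spry1 had a log2FC of −1.20 in TC versus EV (SE 0.13, adjusted p = 0.00019 from edgeR) and of −0.82 in TC + ATA versus EV (SE 0.09, adjusted p = 0.000146). With ATA, Spry1 stood above TC by 0.38 (SE 0.12, 95% interval from 0.10 to 0.66, adjusted p = 0.324 from edgeR), and without EV replicate 2 the adjusted p was 0.0496. Spry1 overlaps the antisense gene Gm42922 over 710 of its 2906 exonic bases, and Gm42922 had at most 16 counts in a library.

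Spry2, the most studied Sprouty and an inhibitor of FGF receptor signaling (chr14:105891947-105896819, minus strand), had 47.4 and 51.0 CPM in EV, 31.9 CPM in TC and 27.7, 30.9 and 30.3 CPM in TC + ATA. EV and TC-expressing libraries did not overlap. Relative to EV, Spry2 had a log2FC of −0.62 in TC (SE 0.10, adjusted p = 0.0018 from edgeR) and −0.73 in TC + ATA (SE 0.07, adjusted p = 6.75e-05). Between TC + ATA and TC it was −0.11, with a 95% interval from −0.32 to 0.11 (adjusted p = 0.782 from edgeR). The calls of Spry1 and Spry2 against EV held under all 13 alternatives.

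Spry4, another Sprouty and the least abundant of the 10 per kilobase of exon, had 10.7 and 12.1 CPM in EV, 12.4 CPM in TC and 12.1, 11.8 and 10.2 CPM in TC + ATA. EV and TC + ATA overlapped, and the single TC library was the highest of all 6. Spry4 had a log2FC of 0.13 in TC versus EV (95% interval from −0.20 to 0.45, adjusted p = 0.564 from edgeR) and of −0.13 in TC + ATA versus TC (interval from −0.44 to 0.17, adjusted p = 0.817).

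The Spred proteins are relatives of Sprouty that bring the RAS GTPase-activating protein neurofibromin to the membrane. Spred1 (chr2:117121374-117182279, plus strand) had 83.0 and 85.4 CPM in EV, 96.4 CPM in TC and 97.5, 96.4 and 91.5 CPM in TC + ATA. Spred2 (chr11:19924375-20024026, plus strand) had 46.5 and 48.0 CPM in EV, 54.0 CPM in TC and 51.5, 56.2 and 53.5 CPM in TC + ATA. For both genes all 4 TC-expressing libraries lay above both EV libraries, by a small margin. TC differed from EV by log2FC values of 0.20 for Spred1 and 0.19 for Spred2 (adjusted p = 0.104 and 0.133 from edgeR). With ATA the values against EV were 0.18 and 0.19 (adjusted p = 0.0473 and 0.0514 from edgeR), on either side of the threshold. The Spred1 call was lost when any 1 of the TC + ATA libraries was left out, with adjusted p between 0.0795 and 0.178 from edgeR, and also with libraries scaled by their totals alone (0.09, adjusted p = 0.329), with the replicate block (adjusted p = 0.169) and with no filter on low counts (adjusted p = 0.0898). For TC + ATA against TC the 95% intervals ran from −0.19 to 0.15 for Spred1 and from −0.19 to 0.18 for Spred2.

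The ETV factors had the lowest values of the 10 genes for TC + ATA relative to TC. Etv4, a transcriptional activator (chr11:101769742-101785371, minus strand), had 48.8 and 50.2 CPM in EV, 106 CPM in TC and 78.9, 74.9 and 75.4 CPM in TC + ATA, so the 3 groups were separate and TC + ATA was in the middle. Its log2FC was 1.10 in TC versus EV (SE 0.08, adjusted p = 1.2e-05 from edgeR) and 0.63 in TC + ATA versus EV (SE 0.06, adjusted p = 5.54e-05). Between TC + ATA and TC it was −0.47 (SE 0.07, 95% interval from −0.64 to −0.31), and Etv4 was the only gene of the 10 that passed the threshold there (adjusted p = 0.0296 from edgeR). The log2FC varied little, from −0.50 to −0.45 over 13 alternatives. The call held under 8 of the 13, DESeq2 among them (adjusted p = 5.38e-05 from DESeq2). It was lost when any 1 of the TC + ATA libraries was left out (adjusted p between 0.141 and 0.219 from edgeR). The call was also lost when libraries were scaled by their totals alone (adjusted p = 0.07 from edgeR) and under a replicate block (edgeR adjusted p = 0.399).

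Etv5, its paralog (chr16:22381309-22439719, minus strand), had 49.9 and 46.5 CPM in EV, 50.9 CPM in TC and 37.9, 35.6 and 37.1 CPM in TC + ATA. The TC library lay just above both EV libraries, and all TC + ATA libraries lay below the other 3. Its log2FC was 0.08 in TC versus EV (95% interval from −0.12 to 0.28, adjusted p = 0.572 from edgeR), and −0.03 with libraries scaled by their totals alone. For TC + ATA against EV, where both groups have replicates, it was −0.39 (SE 0.07, adjusted p = 0.00162 from edgeR), a call that held under all 13 alternatives. Relative to TC it was −0.47 (SE 0.08, 95% interval from −0.65 to −0.28), just outside the threshold (adjusted p = 0.0511 from edgeR). It passed under 6 of 13 alternatives, DESeq2 among them (adjusted p = 0.00157), with adjusted p from 0.000859 to 0.509 over all 13.

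**Figure D2:**
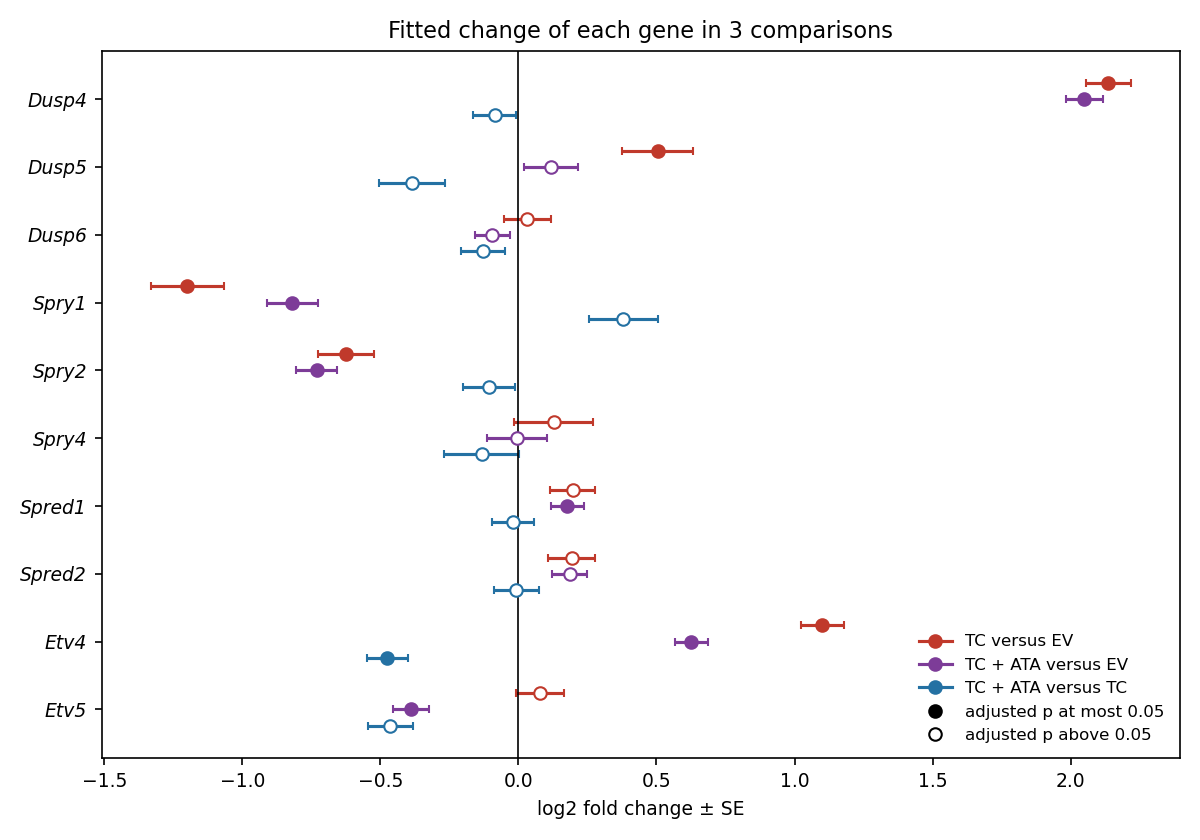
Log2FC values with standard errors of the 10 genes in TC versus EV, TC + ATA versus EV and TC + ATA versus TC, from 1 edgeR fit of all 6 libraries, with filled points where the adjusted p was at most 0.05. Etv4 is the only gene with a filled point in TC + ATA versus TC (−0.47), and Dusp4 and Spry1 mark the ends of the range in TC versus EV (2.14 and −1.20).

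Across the 10 genes, 0 were called higher and 1 lower in TC + ATA versus TC, where 0.426% and 0.156% of all genes tested were called. At an unadjusted p under 0.05 edgeR gave 1 higher (Spry1) and 3 lower (Dusp5, Etv4 and Etv5). Over all 18539 genes tested, 1048 were higher and 733 lower at that limit. DESeq2 called 0 higher and 2 lower of the 10, and 285 higher and 113 lower of all genes. All 3 TC + ATA libraries lay below TC for 7 of the 10 genes and above it for 1, against 32.7% and 30.5% of all genes. The median log2FC was −0.12 for the 10 genes and 0.00 for all genes. In TC + ATA versus EV, Dusp4, Spred1 and Etv4 were higher and Spry1, Spry2 and Etv5 lower, that is 3 and 3 of 10 where 18% and 18.6% of all genes were called (3340 and 3449 genes, or 2711 and 4384 with libraries scaled by their totals alone). The 3 comparisons share libraries, so their values for a gene are not independent.

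Levels of different genes were compared per kilobase of exon (CPM per kb). In EV, Spry2 was the most abundant of the 10 at 23.6 ± 1.20 CPM per kb (SD, n = 2), followed by Dusp6 at 20.0 ± 0.341, and Dusp4 was eighth at 9.91 ± 0.258. Etv4 and Dusp5 overlapped at 15.9 CPM per kb, as did Spred2 and Dusp4, and Spry4 was last at 2.39 ± 0.206. In TC the order changed, with Dusp4 first at 43.6 and Etv4 next at 34.2 CPM per kb, while Spry2 stood at 15.3. In TC + ATA, Dusp4 was again first at 41.0 ± 1.72 CPM per kb (SD, n = 3), Etv4 followed at 24.6 ± 0.691, and the neighbors Dusp6 and Dusp5, as well as Spry2 and Spred1, overlapped.

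The make-up of the families shifted accordingly. These sums and shares were formed after the values had been seen and are given as a description. Summed over Dusp4, Dusp5 and Dusp6, the level was 45.8 and 45.9 CPM per kb in EV, 86.6 in TC and 75.6 to 78.0 in TC + ATA. Dusp4 made up 21.3% and 22.0% of that sum in EV, 50.3% in TC and 51.0% to 56.8% in TC + ATA, and so replaced Dusp6 as the leading member. The 3 Sprouty genes summed to 32.4 and 33.8 CPM per kb in EV and to 20.2 to 21.2 in the TC-expressing libraries, whereas the Spred pair ranged only from 22.3 to 26.4 over all 6 libraries. Etv4 and Etv5 summed to 27.9 and 27.5 CPM per kb in EV, 46.6 in TC and 32.8 to 34.6 in TC + ATA. The ratio of Etv4 to Etv5 per kb was 1.29 and 1.43 in EV, 2.76 in TC and 2.75, 2.78 and 2.69 in TC + ATA. With ATA the summed level of the ETV pair was thus lower than in TC while the ratio differed little.

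**Figure D3:**
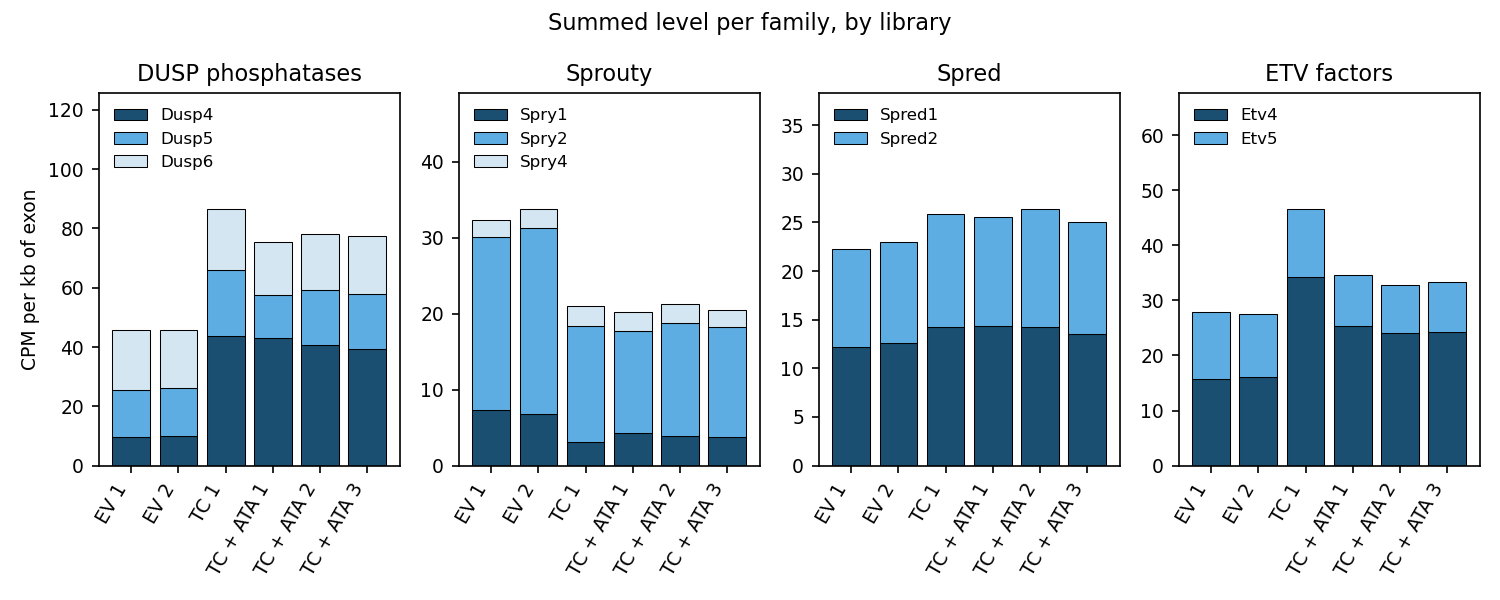
Stacked levels of the DUSP, Sprouty, Spred and ETV genes in each of the 6 libraries, in CPM per kb of exon on axes that start at 0. The DUSP sum goes from 45.8 and 45.9 in EV to 75.6 or more in TC-expressing libraries, the Sprouty sum from 32.4 and 33.8 to 21.2 or less, and the ETV sum is highest in TC at 46.6.

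The rest of the pathway was described by lists of genes ordered from ligand to output. Of 19 growth factor ligands that could be tested, 7 rose and 4 fell in TC relative to EV, with Hgf and Igf1, which encode hepatocyte and insulin-like growth factors, falling most (log2FC values −2.62 and −2.33, adjusted p = 7.33e-06 and 2.3e-05 from edgeR). Of 12 receptor tyrosine kinases, 2 were higher and 4 lower, led by the falls of Pdgfra (−1.20) and Egfr (−1.10), receptors for PDGF and EGF. Of 15 adaptors, exchange factors and RAS GAPs, 6 were higher and 1 lower, led by the docking proteins Gab2 (1.27) and Gab1 (0.79). In the RAS-RAF-MEK-ERK core, 6 of 18 were higher and 4 lower, within log2FC values of −0.47 and 0.80, the top ones being the GTPases Hras (0.80) and Mras (0.67). The adjusted p-values of these 6 genes from edgeR were at most 0.00167. Medians of these 4 lists lay between −0.02 and 0.18.

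**Figure D4:**
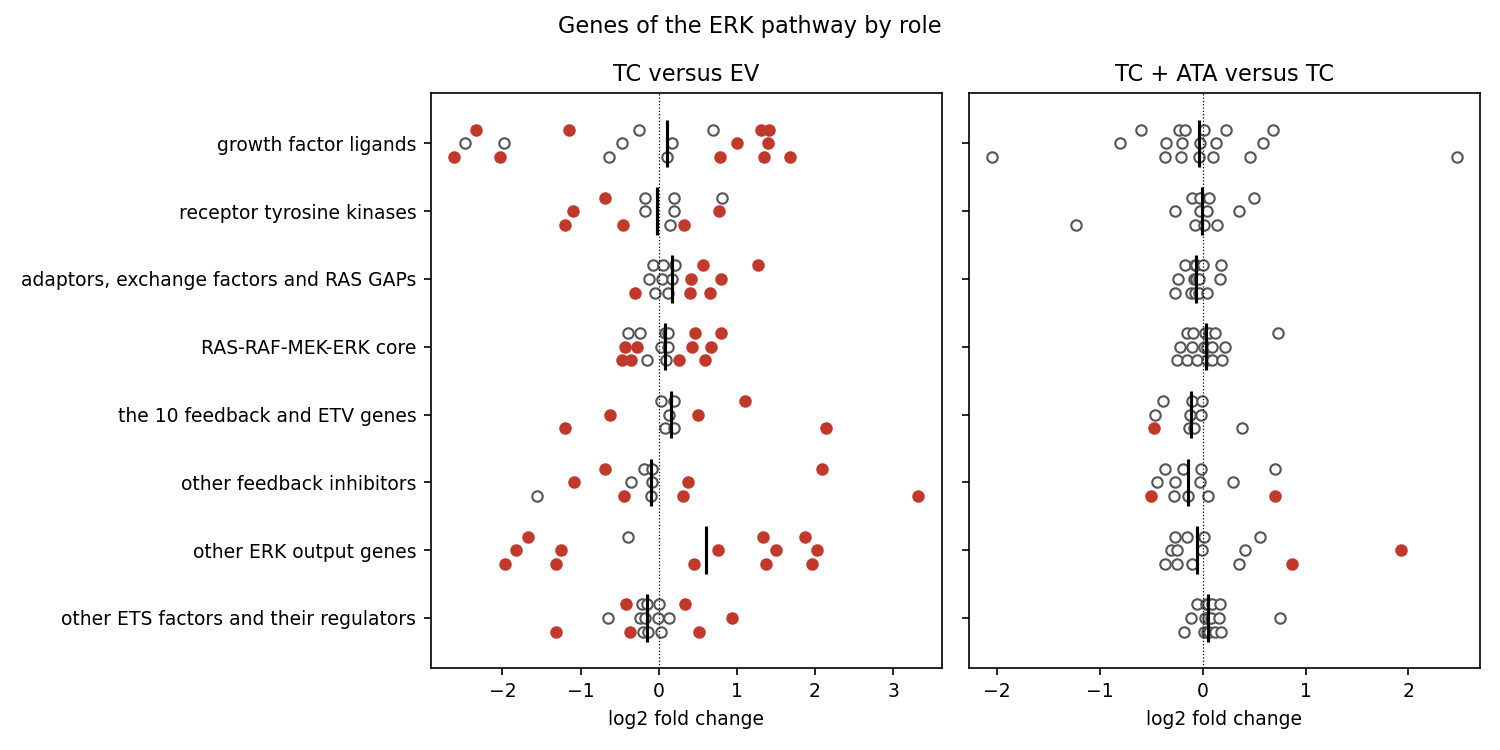
Log2FC values of genes of the ERK pathway by role, in TC versus EV (left) and TC + ATA versus TC (right), with filled points at an adjusted p of at most 0.05 and a black bar at the median of each list. The 10 feedback and ETV genes range from −1.20 to 2.14 on the left and from −0.47 to 0.38 on the right, where 5 genes of all lists are filled.

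Among 13 other feedback inhibitors tested, 4 rose and 3 fell in TC relative to EV. The largest rises were those of Dusp8 and Dusp9, paralogs of Dusp4. Dusp8, a phosphatase of stress-activated kinases, went from 2.70 and 2.12 CPM in EV to 24.2 CPM in TC, which is a log2FC of 3.32 (SE 0.14, adjusted p = 9.19e-07 from edgeR). Dusp9, a cytoplasmic ERK phosphatase related to Dusp6, went from 26.8 and 23.4 CPM to 107 CPM, which is a log2FC of 2.09 (SE 0.10, adjusted p = 1.18e-06). With ATA their levels were 19.0 to 20.7 and 79.9 to 86.4 CPM. Between TC + ATA and TC, 1 of the 13 was higher and 1 lower. Il17rd, an inhibitor of FGF signaling also known as Sef, had 15.6 and 15.4 CPM in EV, 7.29 CPM in TC and 11.3 to 12.6 CPM in TC + ATA (0.70 relative to TC, adjusted p = 0.0429 from edgeR). Errfi1, a feedback inhibitor of the EGF receptor, had 116 and 111 CPM in EV, 107 CPM in TC and 71.0 to 79.7 CPM in TC + ATA (−0.50, adjusted p = 0.0426 from edgeR). Il17rd was lower in TC than in EV (−1.09, adjusted p = 0.000234 from edgeR), whereas Errfi1 did not pass the threshold there (−0.08, adjusted p = 0.562).

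Of 14 other genes induced by ERK, 8 rose and 5 fell in TC relative to EV, led by the receptor Epha2 and the cyclin Ccnd1 (log2FC values 2.03 and 1.96, adjusted p = 7.76e-07 and 1.15e-06 from edgeR). With ATA, Fos and Epha4 were higher than in TC (1.93 and 0.87, adjusted p = 0.0194 and 0.0426 from edgeR), and 0 of the 14 were lower. Of 17 other ETS factors and their regulators, 3 were higher and 3 lower in TC, and 0 were called after ATA. Etv1, the third PEA3 factor, had 13.7 and 15.0 CPM in EV, 5.76 CPM in TC and 5.67 to 6.07 CPM in TC + ATA, that is −1.31 for TC against EV (SE 0.14, adjusted p = 0.000145 from edgeR). Of the 3 PEA3 factors, Etv4 was thus higher in TC and Etv1 lower, and Etv5 (0.08) was not called. Ets1 rose by 0.94 on the log2 scale (adjusted p = 2.83e-05 from edgeR). Capicua itself (Cic) had a log2FC of 0.00 for TC against EV and 0.05 for TC + ATA against TC.

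Profiles over the 6 libraries were compared with those of the 10423 genes with a mean of at least 5 CPM, by the root mean square distance between log2 CPM values centered on each gene's mean. Nearest to Dusp4 were Trim16, Ppp1r12b and Dab2, at distances of 0.0482, 0.0562 and 0.0593. Trim16 had 21.2 and 20.4 CPM in EV, 86.9 CPM in TC and 82.1 to 84.8 CPM in TC + ATA. Nearest to Spry1 were Sardh, Smarca2 and Rab3a, at 0.0578, 0.0642 and 0.0704. Sardh had 26.4 and 25.9 CPM in EV, 11.0 CPM in TC and 14.9 to 15.8 CPM in TC + ATA. With 6 libraries in 3 groups such distances describe the pattern only.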

How the data were processed

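RNA-Seq counts of 6 NIH3T3 libraries were analysed, grouped by the sample labels. The authors aligned paired-end reads to GRCm38.p6 with HISAT2 (version 2.2.1 per the labels' processing notes) and obtained gene counts from featureCounts, deposited as raw counts that were not normalized. The annotation release and the use of strand are not given in the sources used here, so genes that overlap on opposite strands may share reads. Counts from 1 to 9 were even in 60.2% to 62.6% of genes, which happens when both mates of a pair are counted, and counting intervals are then too narrow.

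From the counts, edgeR 4.0.16 in R 4.3.3 (TMM, filterByExpr, glmQLFit with a prior count of 0.125, glmQLFTest, all 6 libraries in 1 fit) gave log2 fold changes, with p-values adjusted by the Benjamini-Hochberg method over 18539 genes. Standard errors came from the F statistic. CPM per kb used the union of GENCODE M21 exons, which name 55141 of 55401 identifiers. Depth ran from 58471484 to 74413193 counts, and 3 counts are 5.13e-06% of the shallowest library. All pairs of libraries differed by more than sampling noise.

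Alternatives were DESeq2 1.42.0, only the groups compared, DESeq2 size factors, library totals alone, no low-count filter, a replicate block, each EV or TC + ATA replicate left out, both limits, a prior count of 2 and, chosen after seeing the data, halved counts. The 10 members, the pathway lists and the motifs were chosen with earlier results of these data known. Named genes are the 10 members, Etv1 and Wwtr1, at most 2 genes per list with the largest change among those called (for TC against EV and for TC + ATA against TC) with at least 5 CPM and no overlap between groups, and the 3 genes nearest in profile to the members that rose and fell most. Camta1, Cic, Col1a1, Vim, Ptprc, Cd68 and the markers at 0 were named after their values were seen. Spry3 was not analysed here.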

Additional observations from a re-analysis of the deposited data

How the results depend on the processing

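Of the 390 values of the 10 genes under alternatives, 348 kept their direction and side of the threshold, 14 changed sign, 12 lost a call and 16 gained one. The calls of Dusp4, Spry1, Spry2 and Etv4 in both comparisons with EV, and that of Etv5 in TC + ATA versus EV, held under all 13 alternatives. These 13 do not include both limits. In TC versus EV, 3 genes were higher and 2 lower. With each replicate left out the first number was between 3 and 5, and with a minimum absolute log2 fold change of 2 added these numbers were 1 and 0, as they were in TC + ATA versus EV. There the 3 genes called higher became between 2 and 4 under the other alternatives, while 3 were called lower under each of them. In TC + ATA versus TC, the 1 gene called lower became 2 with DESeq2, with only the groups compared, with no low-count filter and with halved counts, became 0 with library totals alone, with both limits and with the replicate block, and was between 0 and 3 with each replicate left out, while the 0 called higher became between 0 and 1. Without EV replicate 1 Spred1, and without EV replicate 2 Spred1 and Spred2, joined the genes higher in TC (adjusted p = 0.0392, 0.0111 and 0.0406 from edgeR). Where EV kept 1 library, it was assumed to vary like the TC + ATA group.

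Replicate numbers 1 and 2 occur in the labels of both EV and TC + ATA. Deviations from the group means correlated across genes at −0.0296 for number 1 and −0.148 for number 2. The deviations of the 2 EV libraries mirror each other, so these values cannot decide whether the numbers pair the libraries. The labels do not say. Under the replicate block the log2 fold change of Etv4 in TC + ATA versus TC was −0.46 (adjusted p = 0.399 from edgeR), and over all genes 32 were higher and 8 lower, against 79 and 29.

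Sign changes concerned values near 0. With library totals alone these were Dusp6 (−0.075) and Etv5 (−0.029) in TC versus EV and Spred1 (0.00093) and Spred2 (0.013) in TC + ATA versus TC. Spry4 in TC + ATA versus EV was 0.011 with DESeq2 and with its size factors and 0.071 with the block, and ranged from −0.10 to 0.094 as single replicates were left out. In TC + ATA versus TC, Spred1 was 0.0017 with the block and ranged from −0.036 to 0.0097 with replicates left out, and Spred2 was 0.0034 with only the groups compared and ranged from −0.042 to 0.023. Over all genes, TC + ATA versus TC gave between 7 and 808 higher and between 3 and 762 lower, and TC versus EV between 1717 and 3746 higher and between 1467 and 3708 lower. The causes were not tested.

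The 95% counting intervals of the 10 genes in TC had half-widths between 2.16% and 7.93%, and TC had 1 library, so its spread between replicates is unknown.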

Other observations

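The other ERK-induced genes were split by more than their leading members, and the genes named here were chosen after their values were seen. Higher in TC than in EV, beside Epha2 and Ccnd1, were the protease receptor Plaur (log2 fold change 1.88), the AP-1 subunits Fosb (1.51) and Fosl1 (1.34), the survival gene Ier3 (1.37), Phlda1 (0.76) and Myc (0.45). Lower were the receptor Epha4 (−1.96) and the immediate early genes Fos (−1.83), Egr2 (−1.68), Egr1 (−1.31) and Junb (−1.25). All had an adjusted p of at most 0.00744 from edgeR. Egr1 had 343 and 368 CPM in EV, 143 CPM in TC and 199 to 228 CPM in TC + ATA. Fos, which was higher in TC + ATA than in TC, had 5.91 and 7.82 CPM in EV, 1.93 CPM in TC and 5.84, 7.74 and 8.45 CPM in TC + ATA, so that EV and TC + ATA overlapped. Its TC value rests on 1 library.

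The 6 EGF receptor ligands that could be tested did not move together. In TC versus EV, Hbegf and Ereg were higher (log2 fold changes 1.41 and 1.31, adjusted p = 8.12e-06 and 2.54e-05 from edgeR), and Epgn (0.70), Btc (0.17), Egf (−0.47) and Areg (−0.64) were not called. In TC + ATA versus EV, Areg and Btc were lower (−1.44 and −1.87, adjusted p = 0.00311 and 0.00217 from edgeR). Both were at low levels. Areg had 2.18 and 1.86 CPM in EV and 0.618 to 0.973 CPM in TC + ATA. Btc had 1.14 and 0.931 CPM in EV and 0.211 to 0.345 CPM in TC + ATA. Epgn averaged 0.186 CPM over all libraries. Of the 3 EGF receptor family genes tested, Egfr and Erbb3 fell in TC (−1.10 and −0.69) and Erbb2 rose (0.77), with adjusted p of at most 0.00511 from edgeR. These genes were also picked after the values were seen.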
